A study of Mus musculus with 24 samples.

Results

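Gene expression in the mouse adrenal gland was compared between circadian time 14, early in the projected night, and circadian time 6, the middle of the projected day. Circadian time counts hours from the projected onset of light. The arrays were chosen by their titles. Circadian time 6 comprised the arrays of 42 and 66 h after lights off and circadian time 14 those of 50 and 74 h, which gave 8 of the 24 arrays of the series. Both times came from whole adrenal glands of male wild-type (titled wt) C57B/6J mice aged 3 months. The mice had been entrained for 2 weeks to 12 h of light and 12 h of darkness and were in constant darkness at collection, so by the labels both times share genotype, strain, age and housing and differ only in the hour. Each time point had 1 unlettered array and 1 lettered B, hybridised to an Affymetrix mouse genome array, which reports each transcript as the signal of 1 or more probe sets. The labels do not say whether arrays came from separate animals or from pools, so p-values measure the spread between these arrays, which may be technical and precision is limited by how few they are.

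One pair of columns at each time held nearly the same values and was averaged and counted as 1 sample. Log2 ratios within these 2 pairs had an SD of at most 0.0417, against 0.217 to 0.307 in the 10 other pairs of arrays of the same time. This left 3 profiles at each time, 6 of the 18 in the series. At circadian time 6 they are the 42 h profile, an averaged profile (the unlettered 66 h and lettered 42 h arrays) and the 66 h profile. At circadian time 14 they are an averaged profile (the unlettered 50 h and lettered 74 h arrays), the 50 h profile and the 74 h profile. Values of single profiles are given below in these orders, as log2 of the signal plus 51. A difference is circadian time 14 minus 6 on that scale, with its standard error from a limma fit over the 12 profiles of circadian times 2, 6, 14 and 22. Adjusted p-values are those of limma with Benjamini-Hochberg adjustment over 13879 genes, and a gene was called where this was under 0.05. Values of a gene's second and further probe sets come from a separate limma fit, adjusted over 23029 probe sets.

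The circadian clock of mammalian cells is a loop in which BMAL1 (gene Arntl) and CLOCK activate genes through E-box sequences, among them the Per and Cry genes, whose proteins then repress them. REV-ERB and ROR receptors act on Arntl, and factors such as DBP, TEF and HLF, opposed by NFIL3, carry the rhythm to further genes through D-box sequences. The adrenal cortex makes glucocorticoids from cholesterol under the pituitary hormone ACTH and the medulla makes adrenaline. In nocturnal rodents glucocorticoid secretion peaks around the start of the night.

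The 8 arrays were alike in their controls. Array medians lay between 8.238 and 8.311 (log2), the signal of 18S RNA between 5150 and 5643, and the Gapdh 5'/3' ratio, which falls as RNA degrades, between 1.05 and 1.15. The summed signal of 6 adrenal cortex markers was 63026 to 64300 at circadian time 6 and 63603 to 64599 at circadian time 14, and none of them was called. All but Nr5a1 (11.13 to 11.89) read 13.39 to 13.70, near the highest value of any gene, 13.76. The sum can therefore show little about cortex content. Of 6 medulla markers Pnmt alone was called, and their sum was 34226 to 39611 against 38816 to 42819. This sum includes Pnmt, which rose by 1.43, while Th, Dbh, Chga, Chgb and Slc18a1 gave -0.16 to 0.04. Of 5 endothelium markers Tek alone was called, with a rise of 0.25 (adjusted p = 0.0434), and the others gave -0.17 to 0.25. Their sum was 8508 to 9157 at circadian time 6 and 9170 to 9989 at circadian time 14. The glands also carried fat cell signal. The sum of 5 fat cell markers was 26228 to 33422 at circadian time 6 and 26601 to 37182 at circadian time 14. Alb, the liver-made albumin, ranged from 7.26 to 10.19 and from 7.25 to 9.34. The skeletal muscle genes Mylpf and Tnnt3 were at the floor of 5.67 in every profile of both times, which is a signal of 0. The other muscle markers, Ckm, Acta1 and Myh4, read 8.19 to 8.35, 6.31 to 6.78 and 5.67 to 6.35. No muscle marker was called. Markers of the X zone, a transient inner layer of the mouse cortex, were too dim to be tested.

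Between midday and early night 1262 of 13879 genes (9.09%) passed the test. Of these, 702 (5.06%) were higher at circadian time 14 and 560 (4.03%) were lower. Most differences were small. The median size was 0.36 (1.28-fold) among genes that rose and 0.37 (1.29-fold) among genes that fell, and 36 and 18 genes respectively differed by at least 2-fold. The median difference over all tested genes was 0.01. The 3 profiles of each time did not overlap for 3834 genes (27.6%). The count of calls rested on single profiles: it was 612 without the 42 h profile, 663 without the 50 h profile and 737 without the averaged profile of circadian time 14.

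**Figure D1:**
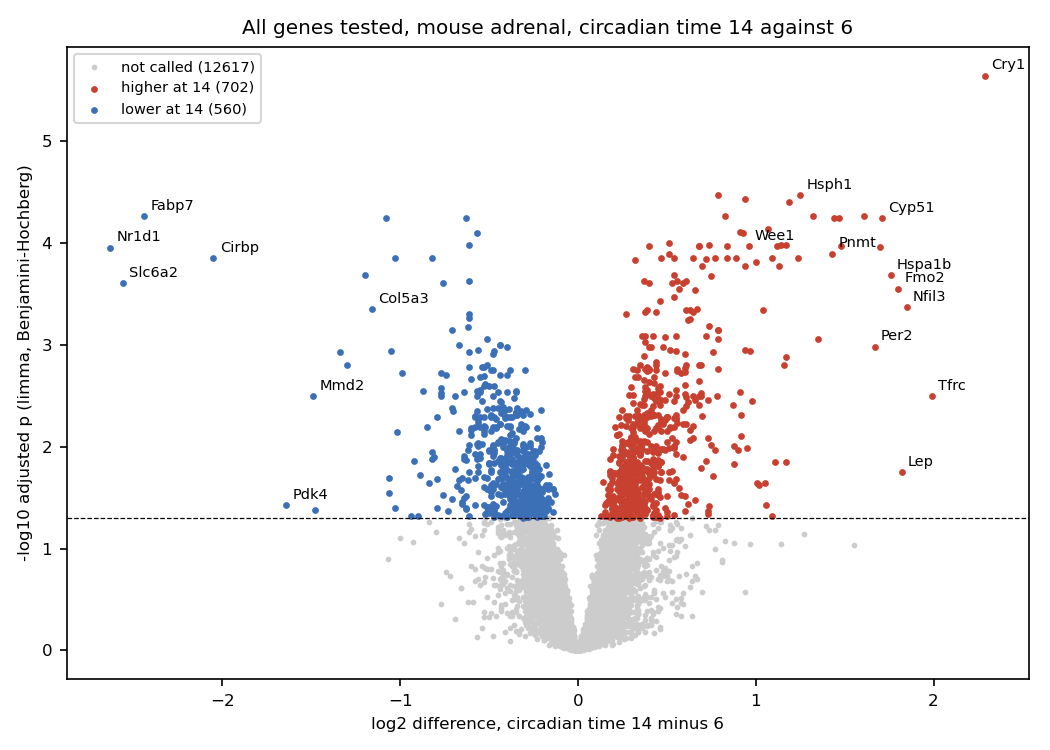
Each point is 1 of the 13879 genes tested, with the log2 difference (circadian time 14 minus 6) on the horizontal axis and -log10 of the limma adjusted p on the vertical axis, and the dashed line marks 0.05. The 702 genes higher at circadian time 14 include Cry1, which lies apart at the top right, and the 560 lower genes include Nr1d1, Slc6a2 and Fabp7 at the far left.

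The largest rise of any called gene was that of the clock repressor Cry1 and the largest fall was that of Nr1d1, the gene of REV-ERB alpha, so the clock loop itself stood at both ends of the comparison. Of 17 tested core clock genes Cry1 and Per2 rose, Nr1d1 fell and 14 were not called (17.6% called, against 9.09% of all genes). The median difference was 0.05. Of the 7 genes of D-box factors and clock output, Nfil3, Wee1, Tef and Hlf rose (57.1% called), with a list median of 0.68.

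Cry1 read 7.57, 7.47 and 7.52 at circadian time 6 and 9.99, 9.80 and 9.62 at circadian time 14. The times lay far apart and the midday profiles were nearly equal. The difference was 2.29 ± 0.11 (4.88-fold, adjusted p = 2.28e-06). Per2, another repressor of the loop, read 9.38, 9.24 and 10.15 and then 11.26, 11.42 and 11.10, and it rose by 1.67 ± 0.22 (adjusted p = 0.00104). Its 66 h profile was the highest of circadian time 6 but lay below every profile of circadian time 14. As single profiles, 50 h minus 42 h gave 2.04 for Per2 and 74 h minus 66 h gave 0.95, a contrast between cycles that has no test here. A second Per2 probe set rose by 0.28 (adjusted p = 0.0139).

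Nr1d1 read 10.83, 10.86 and 10.48 at midday and 7.54, 8.36 and 8.38 in the early night. Here the averaged profile of circadian time 14 was the lowest, and no profile overlapped. Nr1d1 fell by 2.63 ± 0.25 on the log2 scale (6.19-fold, adjusted p = 0.000111). Nr1d2, which encodes the related REV-ERB beta, read 11.32, 11.41 and 11.38 and then 10.90, 11.34 and 11.25, with overlapping times and a difference of -0.21 ± 0.19. Their target Arntl averaged 8.80 at circadian time 6 and 8.81 at circadian time 14, a difference of 0.02 ± 0.21, while it averaged 10.76 at circadian time 2 and 11.01 at circadian time 22. The equal means of Arntl are thus 2 equal levels below those of the late night and early day, and the sign of its difference changed with the profile left out. Per1 differed by 0.46 ± 0.29 (adjusted p = 0.382), Bhlhe40 by 0.53 ± 0.24 (adjusted p = 0.21) and Cry2 by 0.23 ± 0.10 (adjusted p = 0.185). Clock, Npas2, Rora, Per3, Bhlhe41, Ciart, Csnk1d, Csnk1e and Btrc differed by -0.10 to 0.14 and none was called.

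The promoter of Cry1 is shown because it belongs to the gene with the largest rise and carries a perfect E-box, the letters CACGTG, in capitals. The window runs from 250 bases before to 50 after the RefSeq gene start, at chr10:85185005-85185304 on the minus strand of GRCm38.p6.
Cry1: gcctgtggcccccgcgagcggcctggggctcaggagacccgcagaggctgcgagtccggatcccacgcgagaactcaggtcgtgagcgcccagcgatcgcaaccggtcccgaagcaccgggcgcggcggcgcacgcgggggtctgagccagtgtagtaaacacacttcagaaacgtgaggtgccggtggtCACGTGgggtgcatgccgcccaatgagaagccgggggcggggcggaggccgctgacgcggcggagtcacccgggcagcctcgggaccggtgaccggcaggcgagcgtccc
Among the 11074 tested genes with such a window 11.1% held these letters, which read the same on both strands. They were in 4 of the 13 core clock genes with a window (30.8%), in 14% of genes that rose and in 13% of genes that fell.

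Among the D-box factors, the repressor Nfil3 had the largest difference. Nfil3 read 7.48, 7.07 and 7.87 at midday and 9.72, 9.10 and 9.15 at circadian time 14, with no overlap, a rise of 1.85 ± 0.22 (3.62-fold, adjusted p = 0.000425). The activators Tef and Hlf rose by 0.76 ± 0.10 (adjusted p = 0.00117) and 0.68 ± 0.11 (adjusted p = 0.00387), although a second Hlf probe set gave 0.39 (adjusted p = 0.154). Dbp, the third activator, read 12.35, 12.49 and 12.44 and then 10.67, 11.85 and 11.78. All 3 early night profiles were lower, the averaged one by far the most, and the difference of -1.0 ± 0.32 was not called (adjusted p = 0.079). Wee1, a kinase that holds the mitotic kinase CDK1 inactive, read 8.86, 8.68 and 8.86 and then 9.78, 9.82 and 9.70. Its profiles were tight and well separated, and it rose by 0.96 ± 0.09 (adjusted p = 0.000108), while a second Wee1 probe set gave 0.15 (adjusted p = 0.406). Usp2, a ubiquitin protease, and Noct, a phosphatase with rhythmic expression, were not called, at 0.43 ± 0.21 and -0.04 ± 0.11.

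**Figure D2:**
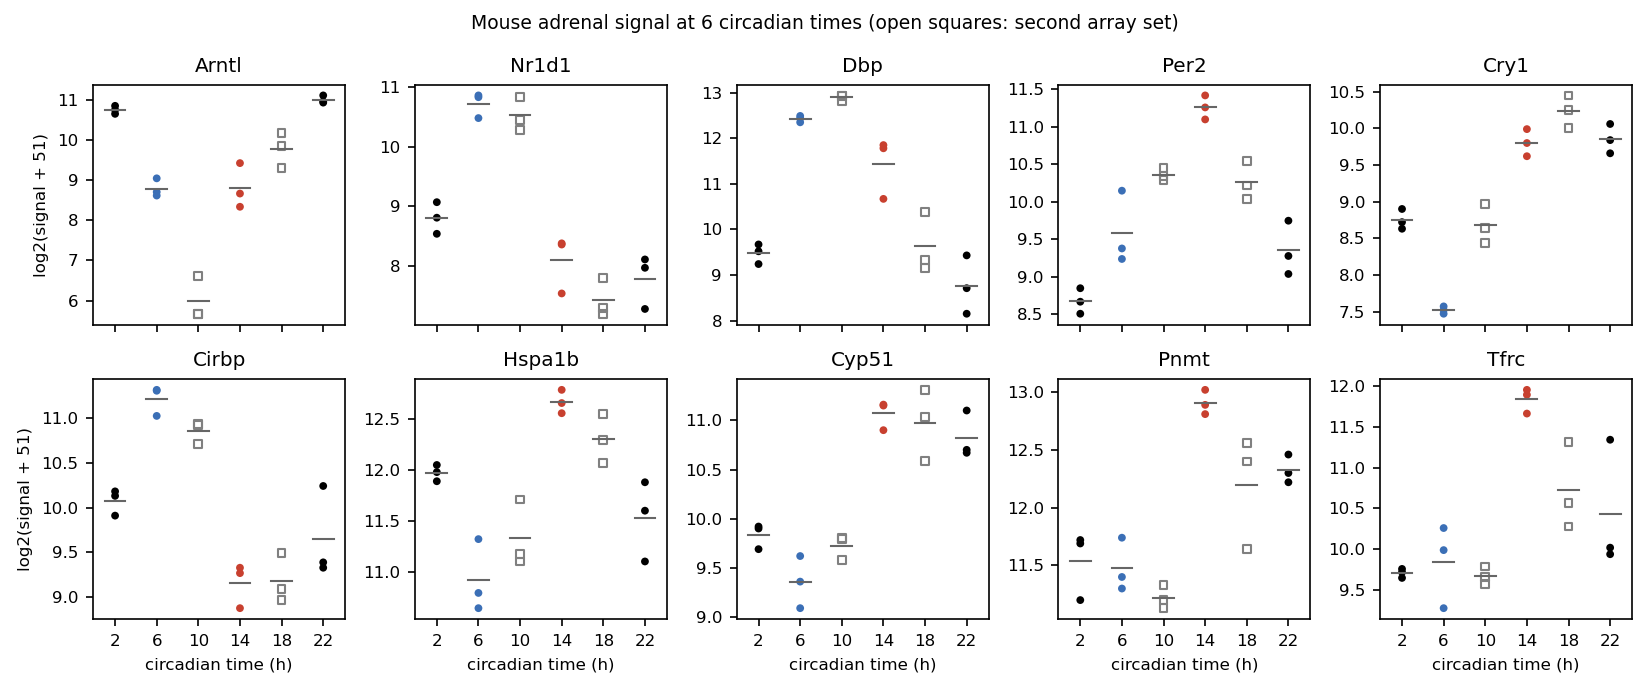
Each panel gives log2(signal + 51) of 1 gene against circadian time in hours, with 3 profiles as points and their mean as a bar, blue for circadian time 6, red for 14, black for 2 and 22, and open squares for circadian times 10 and 18. The open squares come from 8 arrays whose ThrX-3 control read 513 to 1860 against 56.3 to 101 on the other 16. Among these 8, the lettered 78 h array (circadian time 18) had a Gapdh 5'/3' ratio of 0.0386 and an 18S RNA signal of 606.2. The squares are not part of the fit. Arntl has equal levels at 6 and 14. Its lowest values, 5.67, 6.62 and 5.67 at circadian time 10, are open squares, and 5.67 is the floor.

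Genes of cholesterol synthesis rose together. The list median was 0.72 against 0.01 over all genes. Of 17 tested members, 13 rose (76.5%, against 5.06% of all genes) and none fell. They ran from Hmgcs1 near the start of the pathway to Dhcr7 at its end, and Cyp51, Hsd17b7, Sqle and Idi1 had the largest. The count was 12 or 13 whichever profile of circadian times 6 and 14 was left out.

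Cyp51, the lanosterol 14-alpha demethylase, read 9.09, 9.36 and 9.62 at circadian time 6 and 10.90, 11.16 and 11.15 at circadian time 14. The lowest early night profile stood more than 1 log2 unit above the highest midday profile. Its rise was 1.71 ± 0.14 (3.27-fold, adjusted p = 5.67e-05), and the other Cyp51 probe set gave the same 1.71. Sqle, squalene epoxidase, read 9.54, 9.56 and 9.68 and then 10.95, 11.16 and 11.07, a rise of 1.47 ± 0.12 (adjusted p = 5.67e-05). Idi1, which interconverts the isoprenoid building blocks, read 10.46, 10.63 and 10.85 and then 11.86, 12.25 and 12.16, a rise of 1.44 ± 0.12 (adjusted p = 5.67e-05). In both genes the times were separated by at least 1 log2 unit. Hsd17b7, a sterol ketone reductase, rose by 1.48 ± 0.14 (adjusted p = 0.000108) on a probe set marked as open to cross-hybridisation, and its other probe sets gave 0.87, 0.48 and -0.05.

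The other called enzymes rose by 0.39 to 1.32. Hmgcs1, which makes HMG-CoA, read 11.61, 11.80 and 11.76 and then 12.47, 12.49 and 12.38, a rise of 0.72 ± 0.07 (adjusted p = 0.000145). Mvk and Mvd, in the mevalonate steps, rose by 0.46 and 0.55. Fdps, Fdft1 and Lss, which build farnesyl diphosphate, squalene and lanosterol, rose by 1.12, 1.17 and 1.32, and the late enzymes Msmo1, Dhcr7 and Sc5d by 1.09, 0.61 and 0.39. Pmvk, Tm7sf2, Nsdhl and Ebp were not called, at 0.38 ± 0.20, -0.06 ± 0.12, 0.18 ± 0.13 and 0.11 ± 0.06.

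**Figure D3:**
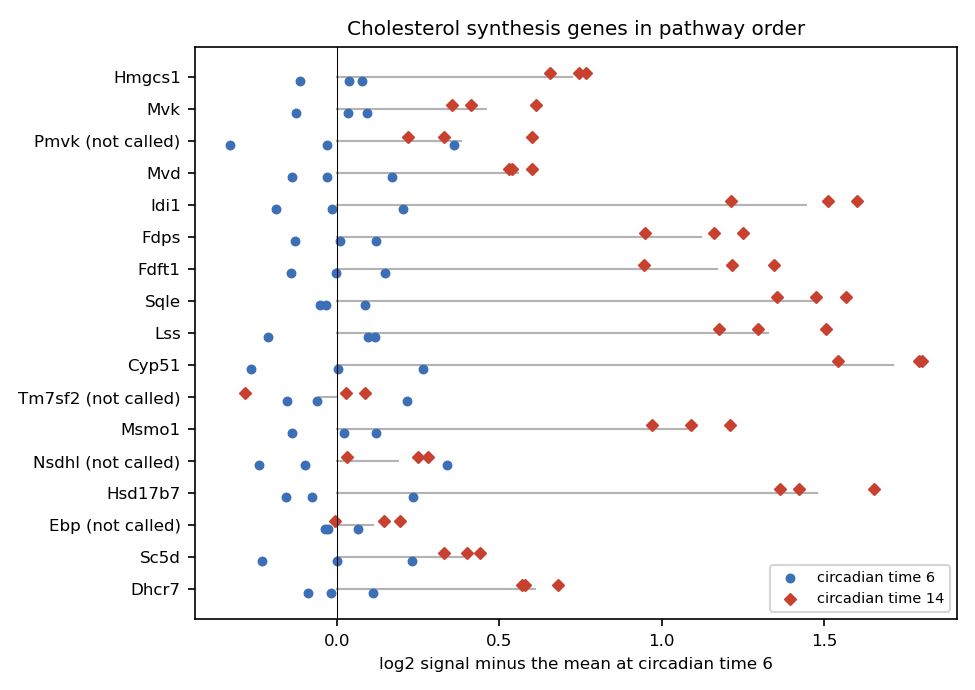
Genes of cholesterol synthesis in pathway order from top to bottom, with each profile's log2 signal minus the mean at circadian time 6 on the horizontal axis, blue circles for circadian time 6, red diamonds for circadian time 14 and a grey line to the mean of the latter. The 13 called genes have their diamonds to the right, from Sc5d at 0.39 to Cyp51 at 1.71. In the 4 marked as not called the ranges of diamonds and circles overlap.

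Promoters of Cyp51 and Hmgcs1 are shown because the pathway's genes rose together. Capitals mark the CCAAT box (CCAAT, or ATTGG on the other strand) and in Hmgcs1 also the letters TCACNCCAC, searched as a sterol regulatory element. The windows are chr5:4104648-4104947 on the minus strand and chr13:119690101-119690400 on the plus strand of GRCm38.p6, from RefSeq.
Cyp51: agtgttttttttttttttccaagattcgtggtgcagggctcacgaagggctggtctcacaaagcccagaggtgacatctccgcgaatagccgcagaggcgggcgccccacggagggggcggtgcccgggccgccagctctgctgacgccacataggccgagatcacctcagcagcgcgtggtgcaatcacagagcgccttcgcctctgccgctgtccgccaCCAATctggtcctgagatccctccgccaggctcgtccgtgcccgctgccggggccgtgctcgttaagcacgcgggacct
Hmgcs1: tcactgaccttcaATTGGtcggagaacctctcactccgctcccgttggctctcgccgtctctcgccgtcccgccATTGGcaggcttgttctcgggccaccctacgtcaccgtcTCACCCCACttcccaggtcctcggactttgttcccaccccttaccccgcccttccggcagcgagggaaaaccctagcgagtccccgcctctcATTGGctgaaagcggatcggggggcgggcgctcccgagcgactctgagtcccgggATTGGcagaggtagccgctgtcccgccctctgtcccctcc
A CCAAT box lay in all 14 cholesterol genes with a window and in 42.0% of all tested genes with one, and in 42.6% of the genes that rose. The letters TCACNCCAC lay in 1 of the 14, Hmgcs1, and in 1.43% of all. Other forms of the sterol regulatory element were not searched, so its absence from the other windows was not tested.

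Around this pathway the picture was mixed, with 4 of 13 genes of sterol control, uptake and storage higher and 1 lower. In all 38.5% were called, against 9.09% of all genes, and the median was 0.16. The number of rises was 2 without the 50 h, the 74 h or the averaged circadian time 14 profile. Stard4, a cytosolic sterol carrier, read 8.85, 8.72 and 8.79 and then 9.69, 9.79 and 9.66, a clean separation and a rise of 0.93 ± 0.08 (adjusted p = 7.97e-05). Scarb1, the receptor that takes up cholesterol esters from HDL, rose by 0.44 ± 0.07 (adjusted p = 0.00353). Abca1, a cholesterol exporter, read 12.19, 12.41 and 12.31 and then 11.63, 11.62 and 11.66. It was lower in every early night profile and fell by 0.67 ± 0.13 (adjusted p = 0.00704). Insig1, which holds the SREBP machinery in the endoplasmic reticulum, rose by 0.66 ± 0.17 (adjusted p = 0.0336), a call that was lost in 5 of 17 alternative settings, all of them with 1 profile left out: the 42 h, the 66 h, the 50 h, the 74 h or the averaged profile of circadian time 14. Srebf1 and Npc2 gave 0.23 ± 0.14 and 0.00 ± 0.10.

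None of the 10 tested genes of steroid synthesis was called at an adjusted p under 0.05 (1 at an unadjusted p under 0.05), and their median was 0. Star, the carrier of cholesterol into mitochondria, read 13.67, 13.65 and 13.65 and then 13.70, 13.69 and 13.67. Cyp11a1, Hsd3b1, Cyp21a1 and Cyp11b1, the enzymes of corticosterone synthesis, differed by 0.01, -0.01, -0.05 and -0.03, each ± 0.03. The steroidogenic factor Nr5a1 gave 0.31 ± 0.14 (unadjusted p = 0.046, adjusted p = 0.205). The brightest of these genes lay at the top of the scale, where the highest value of any gene in these profiles was 13.76. Of the 114 genes with a mean of at least 13, 6 were steroid synthesis genes and 3 in all were called. Whether signals this bright still report differences in RNA was not tested. The uncalled genes Gnas, Hspd1, Chga, Chgb, Fth1, Scd1, Scd2, Sod1 and Prdx3, named below, also had means of at least 13. The same limit holds for them.

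ACTH acts on the cortex through its receptor, cAMP and protein kinase A. In this list 3 of 32 tested genes rose and 2 fell (15.6% called, against 9.09% of all genes), with a median of 0. The number of rises was 1 without the 50 h profile, 2 without the 42 h or the averaged circadian time 14 profile and 7 without the 66 h profile. Prkar2b, a regulatory subunit of the kinase, read 12.16, 12.42 and 12.05 and then 12.69, 12.73 and 12.68, and it rose by 0.49 ± 0.09 (adjusted p = 0.00542). The early night profiles were nearly equal, and the midday ones lay below them and were more scattered. The cAMP phosphodiesterases Pde7a and Pde8a rose by 0.47 ± 0.10 (adjusted p = 0.014) and 0.34 ± 0.08 (adjusted p = 0.0165), and the CREB coactivator Crtc3 fell by 0.23 ± 0.06 (adjusted p = 0.0291). Without the 50 h profile all of these 3 calls were lost; Pde8a also lost its call without the 42 h profile or the averaged profile of circadian time 14, and Crtc3 lost it in 6 of 17 settings. The catalytic subunit Prkaca fell by 0.21 ± 0.04 (adjusted p = 0.0101). The ACTH receptor Mc2r was not called, at -0.25 ± 0.08 (adjusted p = 0.069), although its profiles of 12.66, 12.48 and 12.54 lay above the 12.44, 12.30 and 12.18 of circadian time 14. Gnas, the stimulatory G protein, gave -0.06 ± 0.03.

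Immediate early genes, which respond within minutes to many stimuli, gave 1 call among 17 tested (5.88%, against 9.09% of all genes), with a median of -0.19 and 5 of 17 differences above 0. Jund fell by 0.24 ± 0.06 (adjusted p = 0.0355), a call lost in 7 of 17 settings with an adjusted p of up to 0.116. Fos and Egr1 differed by 0.01 ± 0.36 and -0.23 ± 0.38, with large standard errors.

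The list of the glucocorticoid receptor and genes it induces gave 3 rises among 12 tested and no falls (25% called, against 9.09% of all genes), with a median of 0.15. Nr3c1, the receptor gene, gave 0.21 ± 0.13 and was not called. Single left-out profiles gave 1 to 4 rises: 1 without the 42 h, the 50 h or the averaged circadian time 6 profile, 2 without the 74 h or the averaged circadian time 14 profile and 4 without the 66 h profile. Tsc22d3, which encodes the glucocorticoid-induced leucine zipper, read 10.40, 10.38 and 10.77 and then 11.63, 11.54 and 11.59. The times did not overlap and the rise was 1.07 ± 0.09 (2.1-fold, adjusted p = 7.3e-05). Its probe set is marked as open to cross-hybridisation, and other probe sets of the gene gave 1.19, 1.30 and -0.12. Fkbp5, a co-chaperone of the receptor, rose by 0.53 ± 0.12 (adjusted p = 0.0173), and Sgk1, a kinase, by 0.34 ± 0.09 (adjusted p = 0.0415). The Fkbp5 call was lost without the 42 h, the 50 h, the 74 h or the averaged circadian time 6 profile, and that of Sgk1 in 9 of 17 settings. The metallothionein Mt1 and the factor Klf9 gave -0.18 ± 0.14 and -0.19 ± 0.09. Among 13 Krüppel-like factors only Klf10 was called (7.69%, against 9.09% of all genes). Klf10 read 10.14, 10.11 and 9.57 and then 9.12, 9.24 and 9.0, with no overlap, and it fell by 0.82 ± 0.17 (adjusted p = 0.0131, and 0.0586 without the 42 h profile).

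Protein folding genes formed the broadest shared rise. Of 30 tested heat shock chaperones and co-chaperones 24 rose (80%, against 5.06% of all genes) and none fell, with a median of 0.35. Of 22 genes of folding and stress signalling in the endoplasmic reticulum 11 rose (50%) and none fell, with a median of 0.22. Left-out profiles gave 17 to 24 and 8 to 11 rises.

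Hspa1b and Hspa1a, near-identical genes of the inducible HSP70 whose probe sets may each detect both, had the largest rises of this group. Hspa1b read 10.79, 10.64 and 11.32 at midday and 12.79, 12.66 and 12.56 in the early night, a rise of 1.76 ± 0.19 (3.38-fold, adjusted p = 0.000207). Its 66 h profile was the highest of circadian time 6, as for Per2, and still lay more than 1 unit below circadian time 14. The 66 h profile was the highest of the 3 midday profiles in 24 of the 43 named genes that rose. Single-profile differences were 1.87 for 50 h minus 42 h and 1.24 for 74 h minus 66 h. Hspa1a rose by 1.70 ± 0.16 (adjusted p = 0.000109). Hsph1, an HSP110 nucleotide exchange factor, read 10.91, 10.88 and 11.08 and then 12.24, 12.21 and 12.17, a rise of 1.25 ± 0.09 (2.38-fold, adjusted p = 3.41e-05). Its profiles agreed closely within each time. Ahsa2, related to an activator of the HSP90 ATPase, rose by 1.19 ± 0.09 (adjusted p = 4e-05).

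The rest of the machinery moved by smaller amounts. The HSP90 co-chaperones Fkbp4, Stip1 and Ahsa1 rose by 0.79, 0.63 and 0.51, and the HSP40 genes Dnajb1 and Dnaja1 by 0.88 and 0.65. The constitutive HSP70 gene Hspa8 and Hsp90aa1, of the inducible HSP90 form, rose by 0.32 and 0.38 from already high levels. Of the cytosolic chaperonin subunits Cct3, Cct4, Cct5, Cct6a, Cct7 and Cct8 rose by 0.13 to 0.32. Hspe1 of the mitochondrial chaperonin rose by 0.40. Its partner Hspd1 gave 0.12 ± 0.03 (adjusted p = 0.0575) at 13.08 to 13.28, near the top of the scale. The small heat shock protein Hspb1 gave 0.16 ± 0.07 (adjusted p = 0.158).

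In the endoplasmic reticulum, Manf, a secreted stress-responsive factor, had the largest rise. Manf read 11.94, 11.91 and 12.09 and then 12.46, 12.62 and 12.48, with separate times and a rise of 0.54 ± 0.05 (1.45-fold, adjusted p = 0.00014). Herpud1, of the degradation pathway, rose by 0.41 ± 0.05 (adjusted p = 0.00106), the disulfide isomerase Pdia6 by 0.39 ± 0.07 (adjusted p = 0.00464) and the HSP70 of this compartment, Hspa5, by 0.38 ± 0.06 (adjusted p = 0.0026). Canx and Pdia3, lectin-linked folding genes, gave 0.10 ± 0.03 and 0.09 ± 0.05 and were not called. Among the stress-signalling genes the transcription factor Xbp1 rose by 0.25 ± 0.05 (adjusted p = 0.012). Atf6 and Atf4, likewise transcription factors, gave 0.24 ± 0.11 and 0.16 ± 0.08 with no call, and Ddit3, Trib3, Ern1 and Eif2ak3 gave -0.11 to 0.07 with no call.

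**Figure D4:**
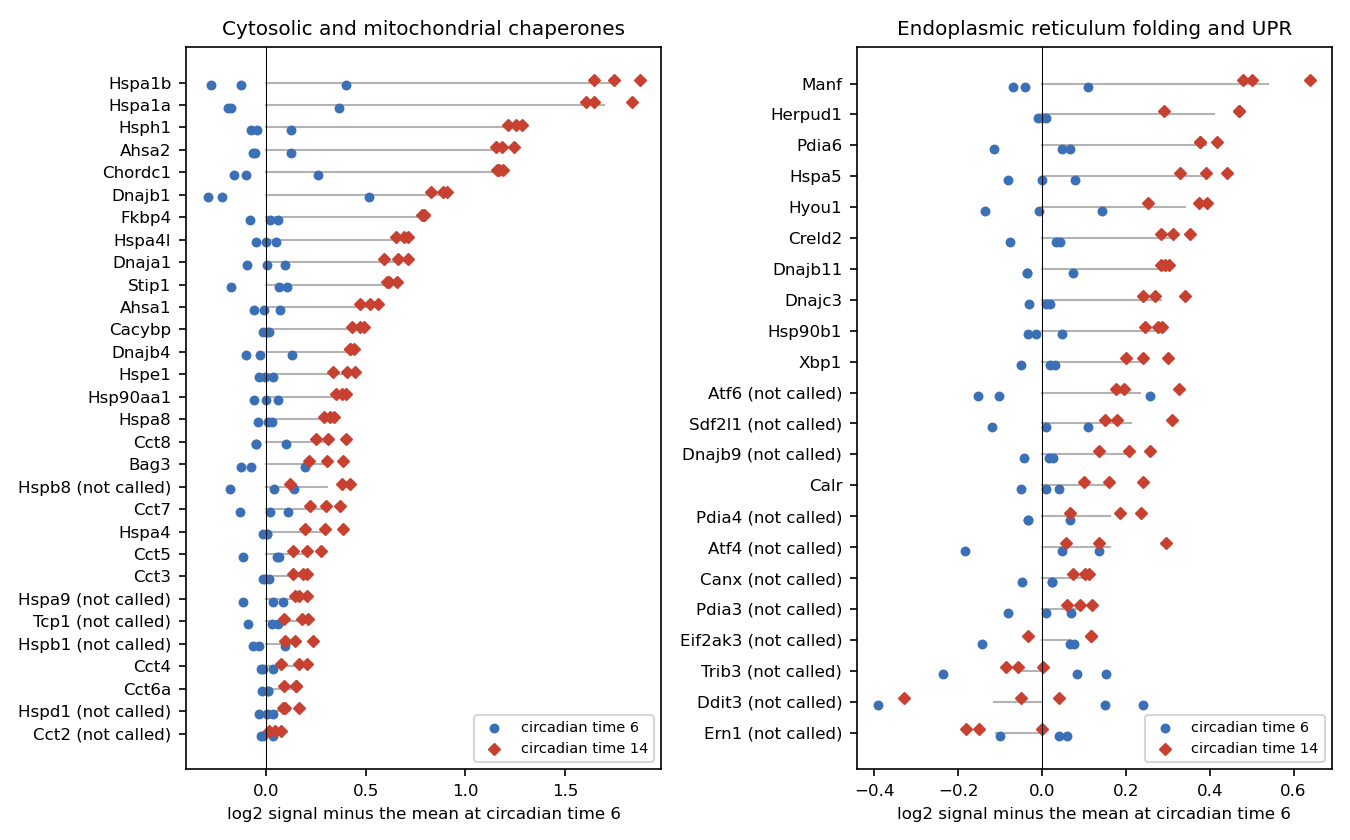
Heat shock chaperones (left, 30 genes) and genes of endoplasmic reticulum folding and the unfolded protein response (right, 22 genes), ordered by their difference, with each profile's log2 signal minus the mean at circadian time 6, blue circles for circadian time 6, red diamonds for 14 and a grey line to the mean of the latter. Diamonds lie to the right for 24 genes on the left and 11 on the right that were called, with wider blue scatter for Hspa1b, Dnajb1 and Chordc1, where the 66 h profile is the highest of circadian time 6.

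Heat shock elements are inverted repeats of GAA, searched as GAANNTTC or TTCNNGAA, both of which read the same on the 2 strands, with overlapping matches counted. Promoters of Hsph1 and Chordc1, an HSP90 co-chaperone that rose by 1.17 ± 0.11, are shown because they hold several matches, in capitals. The windows are chr5:149636287-149636586 on the minus strand and chr9:18292017-18292316 on the plus strand of GRCm38.p6, from RefSeq.
Hsph1: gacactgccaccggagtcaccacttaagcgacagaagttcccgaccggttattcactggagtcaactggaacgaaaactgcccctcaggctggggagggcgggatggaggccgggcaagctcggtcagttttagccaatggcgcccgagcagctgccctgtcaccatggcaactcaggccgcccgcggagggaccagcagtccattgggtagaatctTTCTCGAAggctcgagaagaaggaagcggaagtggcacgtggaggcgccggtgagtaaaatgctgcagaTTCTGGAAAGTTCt
Chordc1: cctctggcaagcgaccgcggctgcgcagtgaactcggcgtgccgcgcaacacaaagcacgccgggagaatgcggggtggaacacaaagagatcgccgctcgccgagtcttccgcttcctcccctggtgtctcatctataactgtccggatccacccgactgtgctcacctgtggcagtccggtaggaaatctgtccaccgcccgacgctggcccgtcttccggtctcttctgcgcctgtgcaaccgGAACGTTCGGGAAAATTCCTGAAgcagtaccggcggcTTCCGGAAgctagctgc
Hsph1 holds 3 matches and Chordc1 holds 5. Of 26 tested chaperone genes with a window 15 held a match (57.7%), and of the 21 called ones 11 did (52.4%). The share was 14.2% over all tested genes with a window and 14.7% over all genes that rose.

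Cirbp, a cold-inducible RNA-binding protein, moved the opposite way to the chaperones. Cirbp read 11.30, 11.02 and 11.31 at midday and 9.33, 9.27 and 8.88 in the early night, without overlap. It fell by 2.05 ± 0.21 on the log2 scale (4.15-fold, adjusted p = 0.00014). In this list of 9 cold-inducible and splicing genes 1 other gene fell and 1 rose (33.3% called, against 9.09% of all genes). The median was 0.03. Srsf1, a splicing factor, rose by 0.44 ± 0.06 (adjusted p = 0.00157) on a probe set marked as open to cross-hybridisation. Other Srsf1 probe sets, without this mark, gave 0.49, 0.46, 0.43, 0.36 and 0.22, of which the last was not called. Srsf5, of the same family, fell by 0.79 ± 0.21 (adjusted p = 0.0399) and lost its call in 6 of 17 settings, with an adjusted p of up to 0.144. Srsf2 and Srsf6 gave 0.08 ± 0.08 and -0.23 ± 0.12.

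On their brightest probe sets in whole glands, 2 genes of catecholamine handling changed strongly in opposite directions, while Th and the chromogranin genes were not called. Pnmt, which turns noradrenaline into adrenaline, read 11.74, 11.40 and 11.30 and then 12.81, 13.02 and 12.89. The rise was 1.43 ± 0.14 (2.69-fold, adjusted p = 0.000127), and the other Pnmt probe set rose by 1.31. Slc6a2, the noradrenaline transporter, read 10.40, 9.86 and 9.70 and then 7.79, 7.52 and 6.98. It was lower in all early night profiles and fell by 2.56 ± 0.28 (5.89-fold, adjusted p = 0.000249). Its other 3 probe sets gave -0.03, -0.05 and -0.34, of which the last alone was called (adjusted p = 0.0497), so the size rests on 1 probe set.

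Of 18 genes of this list 1 rose and 3 fell (22.2% called, against 9.09% of all genes), and the median was -0.10. Ddc, which makes dopamine, fell by 0.53 ± 0.13 (adjusted p = 0.025) and Npy, neuropeptide Y, by 0.22 ± 0.06 (adjusted p = 0.0322). Leaving out single profiles ended both calls in part: Ddc lost its call without the 42 h, the 74 h or either averaged profile, and Npy lost its call in 7 of 17 settings. Th, the rate-limiting hydroxylase, read 12.72, 12.52 and 12.18 and then 12.46, 12.65 and 12.42, a difference of 0.04 ± 0.11. Chga and Chgb, granule proteins that mark chromaffin cells, gave -0.07 ± 0.04 and -0.05 ± 0.03. Both read 13.25 to 13.44, near the top of the scale, where the report of differences in RNA was not tested. In whole glands fewer cells of a type and less RNA per cell cannot be told apart.

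**Figure D5:**
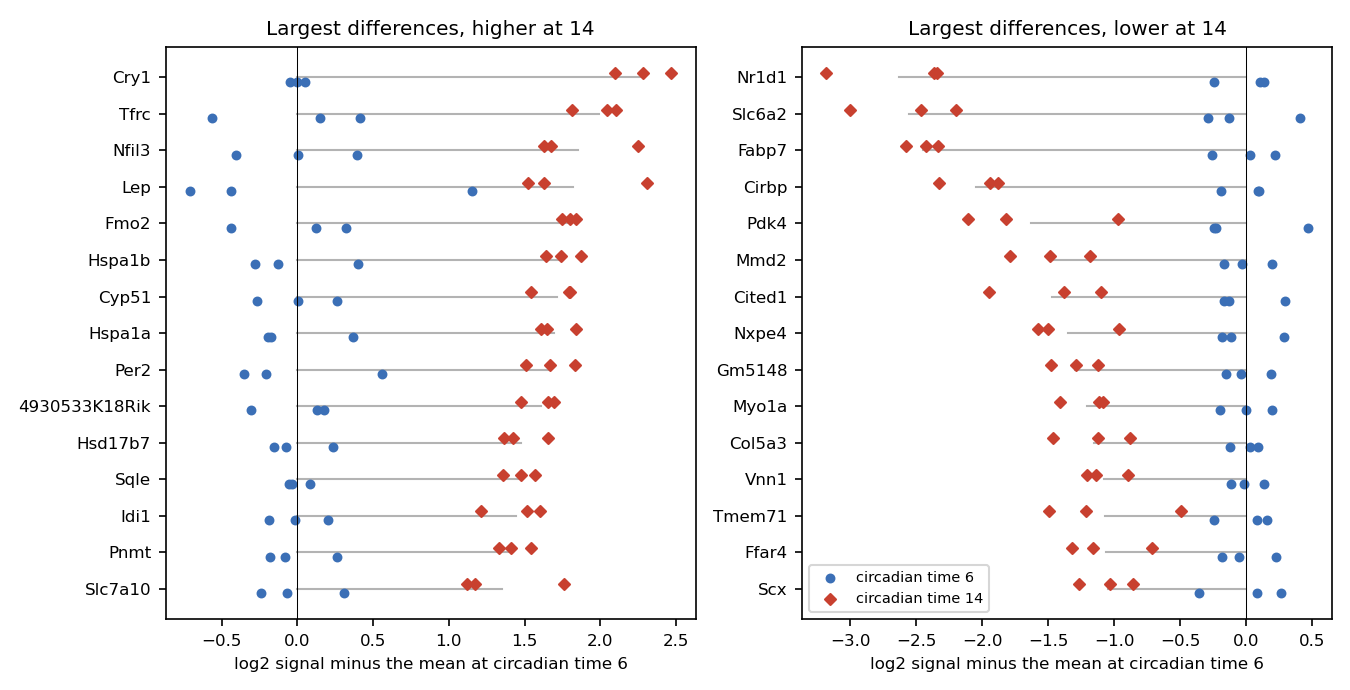
The 15 largest rises (left) and falls (right) among called genes whose profiles of the 2 times do not overlap, as each profile's log2 signal minus the mean at circadian time 6, with blue circles for circadian time 6, red diamonds for circadian time 14 and a grey line to the mean of the latter. Cry1 is the largest rise at 2.29 and Nr1d1 the largest fall at -2.63, and the midday circles of Lep are the most scattered.

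Iron and heme genes were led by Tfrc, the transferrin receptor through which cells take up iron. Tfrc read 9.99, 10.26 and 9.28 and then 11.66, 11.95 and 11.89, with every early night profile above every midday one. The rise was 1.99 ± 0.32 (3.97-fold, adjusted p = 0.00319), and a dimmer Tfrc probe set gave 0.29 (adjusted p = 0.102). Slc40a1, the iron exporter ferroportin, read 10.26, 10.49 and 10.87 and then 9.95, 9.58 and 9.62, and it fell by 0.82 ± 0.17 (adjusted p = 0.0112, and 0.0514 without the 50 h profile). Alas1, the first enzyme of heme synthesis, rose by 0.43 ± 0.09 (adjusted p = 0.0147), a call lost without the 42 h, the 50 h or the averaged circadian time 6 profile. In all 2 of 15 genes rose and 1 fell (20% called, against 9.09% of all genes), with a median of 0.05. Fth1 and Aco1, for ferritin heavy chain and the iron-sensing aconitase, gave 0.00 ± 0.03 and 0.05 ± 0.10.

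Among 14 genes of fatty acid synthesis and oxidation 2 rose and 2 fell (28.6% called, against 9.09% of all genes). The median was -0.03. Fabp7, a fatty acid binding protein best known from glia, read 9.05, 9.34 and 9.53 and then 6.73, 6.88 and 6.97. The early night profiles were close together and far below, and the gene fell by 2.44 ± 0.20 (5.44-fold, adjusted p = 5.43e-05). The Schwann cell markers Sox10 and S100b, which mark the glia of peripheral nerves, gave 0.01 and -0.26 and were not called (adjusted p = 0.964 and 0.274). Fads1 and Fads2, desaturases of polyunsaturated fatty acids, rose by 0.67 ± 0.08 (adjusted p = 0.000446) and 0.40 ± 0.04 (adjusted p = 0.000246). The Fads2 probe set is marked as open to cross-hybridisation, and other probe sets of the gene gave 0.79 and 0.83. Pdk4, a kinase that shuts off pyruvate dehydrogenase, read 11.52, 12.23 and 11.53 and then 9.65, 9.94 and 10.79, and fell by 1.64 ± 0.44 (adjusted p = 0.0374). Its call was lost in 5 of 17 settings, namely without any profile other than that of 74 h. Scd1 and Scd2 gave -0.01 ± 0.04 and 0.12 ± 0.04.

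Lep, the fat cell hormone leptin, read 6.5, 8.09 and 6.23 and then 8.57, 8.46 and 9.25. Its averaged midday profile was close to the early night ones, and the rise was 1.82 ± 0.41 (adjusted p = 0.0177). The call was lost without the 42 h, the 66 h or the 74 h profile, and in the fit of the 6 profiles alone. Of the 5 fat cell markers Lep alone was called. Cidec gave 1.14 ± 0.38 (adjusted p = 0.0895), and Adipoq, Fabp4 and Ucp1 gave 0.08, 0.03 and -0.38. Slc7a10, a neutral amino acid transporter, rose by 1.35 ± 0.18 (adjusted p = 0.000876), and Ffar4, a receptor for long-chain fatty acids, fell by 1.06 ± 0.25 (adjusted p = 0.0203), the latter not called without the 50 h or either averaged profile. The part of fat tissue in the values of these genes was not tested.

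Further genes among the largest differences belonged to none of the lists. Fmo2, a flavin-containing monooxygenase, read 9.09, 8.53 and 9.29 and then 10.77, 10.72 and 10.81, nearly the same in each early night profile. Its rise was 1.80 ± 0.20 (3.48-fold, adjusted p = 0.000281), and its other probe sets gave 1.59, 1.22 and 0.27. The transcript 4930533K18Rik rose by 1.61 ± 0.12 (adjusted p = 5.39e-05), a call that was lost in the fit over all 18 profiles (adjusted p = 0.0963). That fit includes circadian time 18, where its profiles read 8.47, 9.03 and 5.67. The last, at the floor, is the lettered 78 h array, whose Gapdh 5'/3' ratio was 0.0386. Mmd2 fell by 1.49 ± 0.24 (adjusted p = 0.00321), with 11.91, 11.77 and 12.14 against 10.76, 10.45 and 10.15, on a probe set marked as open to cross-hybridisation. The other Mmd2 probe set, without this mark, gave -1.48 (adjusted p = 0.00338). Col5a3, a collagen V chain, read 10.77, 10.62 and 10.83 and then 9.86, 9.62 and 9.28, and fell by 1.16 ± 0.14 (adjusted p = 0.000446), while its other probe set gave -0.03. Vnn1, a pantetheinase, fell by 1.08 ± 0.09 (adjusted p = 5.67e-05) with tight profiles at both times.

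The remaining falls were those of Nxpe4 (-1.34 ± 0.18), Gm5148 (-1.30 ± 0.18), Myo1a, a brush border myosin (-1.20 ± 0.13), and Scx, a tendon transcription factor on a probe set marked as open to cross-hybridisation (-1.05 ± 0.14), with adjusted p between 0.000204 and 0.00157. The other Scx probe set, without this mark, gave -1.29 (adjusted p = 0.000211). Cited1, a transcriptional co-regulator, fell by 1.48 ± 0.41 (adjusted p = 0.0419) and Tmem71 by 1.06 ± 0.27 (adjusted p = 0.0283). Cited1 lost its call without any 1 of the 6 profiles, and Tmem71 without the 42 h, the 66 h, the 50 h or the 74 h profile.

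Lists of housekeeping machinery held few or no calls, against 9.09% of all genes. No gene was called among 37 proteasome subunits, 44 cytosolic ribosomal proteins and 77 genes of the respiratory chain and ATP synthase, with medians of -0.01, 0 and -0.03 and with 2, 1 and 0 genes at an unadjusted p under 0.05. Of 76 mitochondrial ribosomal proteins (3.95% called) Mrps6 and Mrps12 rose by 0.20 and 0.15 and Mrps34 fell by 0.18. Each lost its call in 4 or more settings. In the antioxidant list 2 of 17 genes rose (11.8% called, against 9.09% of all genes). Srxn1, sulfiredoxin, which repairs overoxidised peroxiredoxins, read 10.76, 10.53 and 10.92 and then 11.39, 11.51 and 11.40, a separated rise of 0.70 ± 0.12 (adjusted p = 0.00502). Txnrd1, thioredoxin reductase, rose by 0.20 ± 0.05 (adjusted p = 0.0335, lost in 8 settings), and Sod1 and Prdx3 gave -0.04 ± 0.04 and -0.03 ± 0.04.

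Calls among cell cycle and zonation genes were near the 9.09% of all genes in share. Of 17 tested genes of DNA replication and the cell cycle (11.8% called), Wee1 and Ccnd2 rose, the latter, cyclin D2, by 0.14 ± 0.03 (adjusted p = 0.0223, lost in 8 settings). Pcna, the replication clamp, and Ccnd1 gave 0.08 ± 0.09 and 0.19 ± 0.07. Of 11 genes of the zona glomerulosa, the aldosterone-making outer layer, and of zonation signals, Dab2 alone was called (9.09%), with a rise of 0.29 ± 0.07 (adjusted p = 0.0186). That call was lost without the 42 h, the 66 h, the 50 h or the averaged circadian time 14 profile. Aldosterone synthase Cyp11b2 and the potassium channel Kcnk3 gave 0.03 ± 0.08 and -0.02 ± 0.05.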

How the data were processed

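The members compared and the gene lists were chosen with earlier results of these data known. The authors deposited 1 linear intensity value per probe set and array, and how they summarised and scaled these was not given in the sources used here. Per the labels' protocols, biotin-labelled total RNA had been purified on columns. Values were taken as log2(intensity + 51), where the offset is the 10th percentile over every array, which understates the fold changes of dim genes. No further normalization was applied. Columns of 1 circadian time that agreed within about 5% in every probe set above 50 were averaged on the log2 scale.

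Of 45101 probe sets 64 were controls, 932 had several gene symbols and 9211 had no entry in the platform's annotation and are unnamed here. Those whose mean signal lay below 184, the 40th percentile, were not tested. The brightest remaining one stood for each gene, which gave 13879 genes. limma 3.58.1 in R 4.3.3 (with the package data.table, release 1.17.8) fitted 12 profiles, 3 for each of circadian times 2, 6, 14 and 22, with a trend in eBayes. Circadian times 10 and 18 lay on arrays with other control signals and entered only an alternative. The fit was tested on simulated data.

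Genes named in the text are the 15 largest called rises and falls without overlap, all tested clock and D-box members and, of each other list with a call, up to 4 called members with the largest difference and up to 2 uncalled ones with the highest mean. Others are named as members of a list and were chosen after their values were seen. Promoter windows are RefSeq's on GRCm38.p6, found for 11074 of the genes; a gene with several windows counted where any held the motif. Alternatives changed the samples in the fit, the treatment of near-copies, a replicate block from the title's letter, the offset, the filter, the normalization, the probe set, the trend and, in turn, each left-out profile.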

Additional observations from a re-analysis of the deposited data

How the results depend on the processing

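Fewer profiles or more circadian times lowered the count of calls, and treating near-copies as separate arrays raised it. The fit of the 6 profiles alone called 883 genes, 465 higher at circadian time 14, and the fit of all 18 profiles called 765 (424 higher, 341 lower). The 18 profiles include the lettered 78 h array, with a Gapdh 5'/3' ratio of 0.0386. Its effect on the count was not tested. Taking all 16 arrays as independent gave 3128 (1807 and 1321), and the same arrays with the title's letter as a replicate block gave 3277 (1866 and 1411). Both count near-copies as replicates, so their numbers are no measure of confidence; whether the letter pairs arrays was not stated in the labels. All probe sets gave 1924 calls, 1124 higher, over more features. Leaving out 1 profile gave 612 to 1186 calls, 329 to 766 higher and 243 to 420 lower. The higher calls were fewest without the 50 h profile (329), then the 42 h (369) and the averaged profiles of circadian times 14 (408) and 6 (446). The lower calls were 243 without the 42 h profile, 264 without the 74 h, 329 without the averaged circadian time 14 and 334 without the 50 h profile. The offset, filter, trend, quantile normalization and probe set alternatives kept all 3 counts within 1.5 times, apart from the use of all probe sets. Quantile normalization turned the balance of directions, with 626 higher and 707 lower. The cause of these shifts was not tested.

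Single-gene alternatives were run for the genes chosen by the naming rule, not for the other list members named in the text. Of the 67 called genes so chosen, none changed direction in 1131 values over 17 settings; 1009 values kept the call and 42 genes kept it throughout. Differences that changed sign were small. Aco1 was -0.01 over 16 arrays with or without the replicate block, and Scd1 was 0.00 under quantile normalization. With 1 profile left out Aco1 lay between -0.02 and 0.15, Arntl between -0.29 and 0.25, Csnk1d between -0.09 and 0.05, Cyp11b2 between 0.00 and 0.06, Fth1 between -0.02 and 0.03, Kcnk3 between -0.09 and 0.03 and Mrpl51 between -0.07 and 0.02. In the same way Noct lay between -0.12 and 0.04, Npas2 between -0.20 and 0.02, Npc2 between -0.07 and 0.10, Rora between -0.02 and 0.11, Scd1 between -0.04 and 0.00 and Srsf2 between -0.03 and 0.16. None of these genes was called. Signals at the bright end and the dim end of the array limit what can be seen, and of 129 other probe sets of 66 named genes 27 were not called where the chosen one was and none was called in the opposite direction.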
